A study of Rattus norvegicus with 44 samples.

Results

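The direct comparison of FGF2 with FGF7 used 6 of the 44 samples of the study, 3 ovary samples treated with FGF2 and 3 treated with FGF7, chosen by their labels. Whole ovaries were taken from 4-day-old female Sprague-Dawley rats, when most follicles are primordial, and kept in organ culture for 48 h. The medium held rat FGF2 or human FGF7 (also named keratinocyte growth factor), each at 50 ng/ml, and was changed daily. Each sample was the total RNA of 2 or 3 ovaries from a single culture well, pooled from different pups of one litter, hybridised to an Affymetrix rat gene array of 27342 probe sets. The 38 arrays that the authors preprocessed together also held 6 other growth factors and 14 untreated controls. These 32 other arrays served to estimate the spread of each probe set, and the controls are given as a level beside the genes. A culture day held untreated ovaries and a few of the growth factors, but the labels do not give the day, so that treatment and culture day cannot be told apart. No other dose or time was measured for either factor, and nothing in the labels places the 3 samples of a factor in separate litters.

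FGF2 and FGF7 are secreted proteins of one family that signal through receptor tyrosine kinases. FGF7 comes from mesenchymal cells and acts mainly on epithelial cells, through the epithelial splice form of Fgfr2, while FGF2 acts on several receptors, mainly in the forms that mesenchymal cells carry. Activated receptors switch on the ERK pathway, which in turn switches on its own inhibitors (the Dusp phosphatases, the Sprouty and Spred proteins) and the PEA3 group of ETS transcription factors. In the neonatal ovary, both factors are known for promoting the passage of primordial follicles to primary follicles.

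The first FGF2 array stood apart from the other 5. Its levels correlated with theirs at r = 0.974 to 0.977 over all probe sets, against 0.991 to 0.995 for every other pair of the 6 arrays. Its oocyte markers averaged 7.43 on the log2 scale, against 9.48 and 9.09 on FGF2 arrays 2 and 3, 9.14 to 9.16 on the FGF7 arrays and 7.85 to 9.50 on the 14 controls (median 9.11). Its mean correlation with all other arrays preprocessed together was 0.9763, the lowest of the set, with controls from 0.9765 to 0.9900. The first array also had the lowest mean correlation of its group with AMH, BMP4, GDNF, KITLG, LIF and PDGF-AB (0.9825 to 0.9881). With FGF7 the first array had the highest of its group (0.9903). The cause of this pattern was not tested. Values without the first FGF2 array are given for each transcript that passed and for the groups that it moved.

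A few transcripts, 10 of them named genes, differed between FGF2 and FGF7, and each was higher with FGF2. They included Dusp6, which switches ERK off, and the PEA3 factor Etv4. The others with a symbol were Hsd11b1, which regenerates active glucocorticoid, Rem1, a small GTPase, Tulp2, a tubby-like protein, Lhfpl6, a membrane protein, the nucleoside transporter Slc29a1, the amino acid transporter Slc43a1, Selenop, the secreted selenium carrier, and Gpr37, an orphan receptor. In numbers, 13 of 27342 probe sets (0.0475%) passed an adjusted p of 0.05 in limma, 13 higher with FGF2 and 0 lower. At an unadjusted p under 0.05, 743 probe sets (2.72%) were higher with FGF2 and 394 (1.44%) lower, and the total of 1137 (4.16%) is below the 5% that this limit passes when nothing differs. The median difference was 0.01 on the log2 scale, and 88 probe sets (0.322%) had a difference of more than 1 in size, 42 higher and 46 lower with FGF2. Without the first FGF2 array, 2 probe sets passed, Tulp2 and probe set 10777232, which is unnamed here. The calls depended on the FGF7 arrays as well. With FGF7 array 1, 2 or 3 left out, Tulp2 was each time the only 1 of the 10 named genes that passed.

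**Figure D1:**
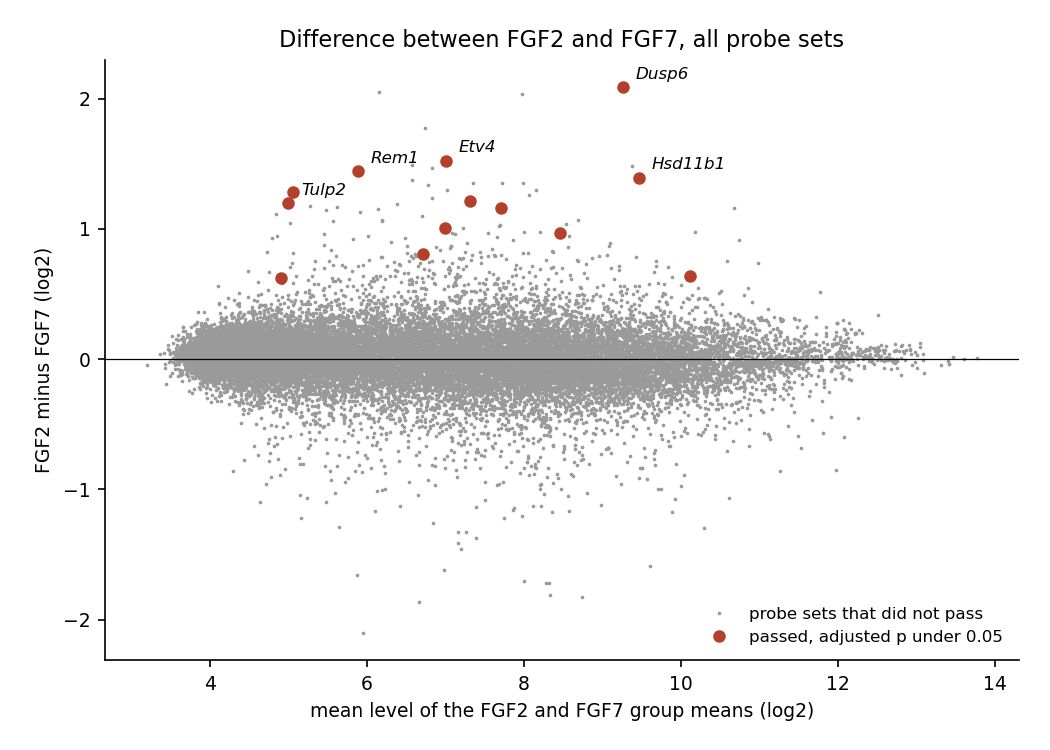
Difference between the mean of 3 FGF2 arrays and the mean of 3 FGF7 arrays (vertical axis, log2) against the mean of both group means (horizontal axis, log2), for all 27342 probe sets. The 13 that passed an adjusted p of 0.05 are the red points, all above 0, and most probe sets lie close to 0.

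Dusp6, the phosphatase that inactivates ERK and is a standard readout of FGF signalling, had the largest difference of the genes that passed. Its level was 11.39, 9.85 and 9.67 (log2) on FGF2 arrays 1, 2 and 3, and 8.17, 8.25 and 8.23 on the FGF7 arrays. All 3 FGF2 arrays were above the highest of the 14 controls (9.18), while the 3 FGF7 arrays were within the control range and above its median of 7.97. The difference was 2.09 (95% interval 1.32 to 2.86, limma adjusted p = 0.0236), a 4.96-fold ratio of the means of unlogged levels. Without FGF2 array 1 the difference was 1.54 with an adjusted p of 0.718. Dusp6 did not pass without FGF7 array 1, 2 or 3 either (limma adjusted p = 0.134, 0.0791 and 0.141).

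Etv4 is a PEA3 group transcription factor that FGF signalling turns on in many tissues. It stood at 8.33, 7.37 and 7.60 on the FGF2 arrays and at 6.35, 6.14 and 6.25 on the FGF7 arrays. The FGF7 arrays were below the control median of 6.44, and 2 of 3 FGF2 arrays were above the highest control (7.55). The difference was 1.52 (limma adjusted p = 0.0306), and 1.24 with an adjusted p of 0.724 without FGF2 array 1.

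Hsd11b1 encodes the enzyme that turns inactive 11-keto glucocorticoids into active ones. It stood at 10.96, 9.93 and 9.61 on the FGF2 arrays, all above the highest control (9.42), and at 8.94, 8.39 and 8.98 on the FGF7 arrays, all within the control range. The difference was 1.39 (limma adjusted p = 0.0464). Without FGF2 array 1 it was 0.996 and did not pass.

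Rem1, of the RGK family of small GTPases, was measured at 7.87, 6.16 and 5.81 with FGF2 and at 5.23, 5.35 and 4.93 with FGF7. The 3 FGF2 arrays were above all controls (highest 5.68), with array 1 far above the other 2. The difference was 1.44 (limma adjusted p = 0.0373), and 0.82 with an adjusted p of 0.724 without that array.

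Tulp2, a tubby-like protein known mainly from the testis, gave the lowest p of all probe sets. It was at 5.87, 5.22 and 5.71 with FGF2 and at 4.34, 4.42 and 4.44 with FGF7, where the controls lay between 4.29 and 4.81. The FGF2 arrays were above every control, and the FGF7 arrays were in the lower part of the control range. The difference of 1.2 (SE 0.121, limma adjusted p = 6.14e-07) was 1.07 without FGF2 array 1 (adjusted p = 3.69e-05), so that its call did not depend on that array. The SE rests on 1 spread taken over all 38 arrays. The SD was 0.34 among the FGF2 arrays and 0.05 among the FGF7 arrays. With the spread taken from these 6 arrays only, the limma adjusted p of Tulp2 was 0.87. The levels were low, with a mean of 4.58 over the 38 arrays, where the medians of the FGF2 and FGF7 arrays were 5.93 to 6.01.

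The 2 membrane transporters that passed were both above all controls on all 3 FGF2 arrays. Slc29a1, which carries nucleosides across the membrane, was at 9.80, 8.56 and 8.46 with FGF2 and at 8.10, 7.87 and 7.94 with FGF7. Slc43a1, which carries large neutral amino acids, was at 7.70, 6.73 and 6.93 with FGF2 and at 6.28, 6.16 and 6.49 with FGF7. The highest controls were 8.09 and 6.53, and FGF7 array 1 was also just above the highest control in Slc29a1. The differences were 0.97 (limma adjusted p = 0.0316) and 0.81 (adjusted p = 0.0473), and were 0.54 and 0.52 without FGF2 array 1, where neither passed.

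Selenop, the plasma protein that carries selenium, was at 10.70, 10.29 and 10.30 with FGF2 and at 9.78, 9.78 and 9.82 with FGF7. The FGF2 arrays were above the highest control (10.20), and the FGF7 arrays were below the control median (9.90). The difference was 0.64 (limma adjusted p = 0.0473), and 0.50 with an adjusted p of 1 without FGF2 array 1. Lhfpl6, a member of a family of membrane proteins with several spans, was at 8.01, 7.42 and 7.07 with FGF2 and at 6.40, 6.46 and 6.61 with FGF7. Its controls ran from 6.27 to 7.38 with a median of 6.90, so that the FGF2 arrays were above the median and the FGF7 arrays below it. The difference was 1.01 (limma adjusted p = 0.0464), and 0.75 with an adjusted p of 1 without FGF2 array 1.

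Gpr37, an orphan G protein coupled receptor, differed from the others in where the FGF7 arrays stood. It was at 5.16, 5.11 and 5.38 with FGF2 and at 4.59, 4.67 and 4.51 with FGF7. Of the FGF7 arrays, 2 of 3 were below the lowest control (4.63), while 1 of the 3 FGF2 arrays was above the highest (5.22). The difference was 0.63 (limma adjusted p = 0.0373), and it was 0.65 without FGF2 array 1, with an adjusted p of 0.285.

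The remaining 3 probe sets that passed are not named in the platform annotation used here. Probe set 10777232 was the most even of them, at 7.99, 7.90 and 7.89 with FGF2 and at 6.59, 6.67 and 6.88 with FGF7. Its difference was 1.21 (limma adjusted p = 0.000987), and 1.18 without FGF2 array 1 (adjusted p = 0.018). Probe sets 10932704 and 10904877 differed by 1.16 (adjusted p = 0.00224) and 1.28 (adjusted p = 0.0236). They differed by 0.94 (adjusted p = 0.125) and 1.12 (adjusted p = 0.578) without FGF2 array 1, where neither passed.

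**Figure D2:**
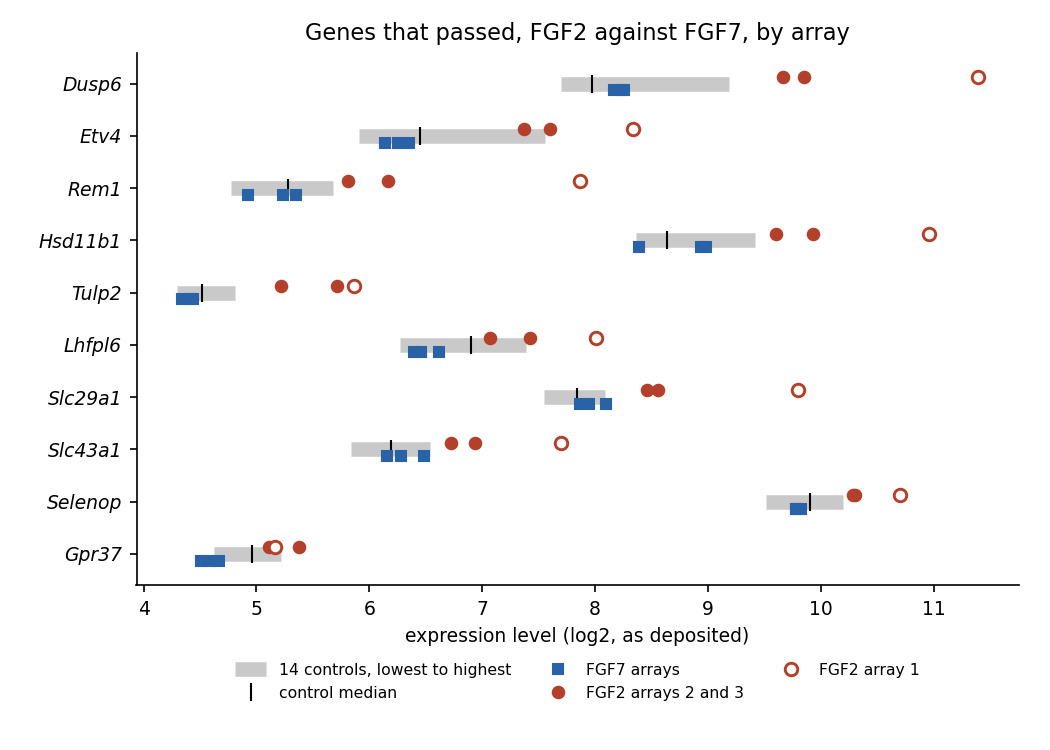
Expression level (horizontal axis, log2 as deposited) of the 10 genes that passed, on each FGF2 array (circles, array 1 open) and each FGF7 array (squares), with the range (grey bar) and median (tick) of the 14 controls. In each gene the circles lie to the right of the squares, and array 1 is the circle farthest to the right in all but Gpr37.

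Of the 10 genes, 8 had an entry in the RefSeq promoter table of build GRCr8, which holds 250 bases before and 50 after a gene's start. Etv4 and Hsd11b1 had none. The promoters were searched on both strands for the ETS letters CCGGAA and AGGAAG, which share GGAA, and for the AP-1 letters TGANTCA, since ETS and AP-1 factors act downstream of ERK. AGGAAG was found in 3 of the 8 (Dusp6, Tulp2 and Selenop), against 34.5% of all 33469 windows of 300 bases. CCGGAA was found in 0 of the 8, against 15%, and TGANTCA in 0 of the 8, against 7.33%. Part of the window is shown for Dusp6, the ERK phosphatase with the largest difference, and for Tulp2, the named gene whose call held without each array in turn. Of the 300 bases, the first 148 and 167 are printed, those that lie before the outermost annotated start of the gene, and the bases from there on are left out. Capitals mark a motif, here AGGAAG read on the opposite strand, and the matches of Tulp2 lie outside the stretch shown. Dusp6 is at chr7:35979354-35979501 and Tulp2 at chr1:105098717-105098883 of GRCr8, both on the plus strand.
Dusp6: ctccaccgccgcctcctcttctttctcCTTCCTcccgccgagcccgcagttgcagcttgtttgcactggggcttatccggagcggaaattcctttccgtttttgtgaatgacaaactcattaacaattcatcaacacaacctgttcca
Tulp2: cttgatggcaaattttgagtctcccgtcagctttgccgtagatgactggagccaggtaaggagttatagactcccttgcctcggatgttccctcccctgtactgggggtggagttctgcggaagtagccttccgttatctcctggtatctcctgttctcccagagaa

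None of the transcripts of the receptors themselves passed. Fgfr1, the receptor most common on mesenchymal cells, was at 9.72, 9.19 and 9.26 with FGF2 and at 9.23, 9.04 and 9.38 with FGF7, a difference of 0.17 (95% interval -0.18 to 0.52). Fgfr2, whose epithelial splice form binds FGF7, was at 10.82, 10.05 and 10.33 with FGF2 and at 10.25, 10.28 and 10.04 with FGF7. Its difference was 0.21 (95% interval -0.32 to 0.74), and its probe set covers the gene as a whole and does not separate the splice forms. The differences of Fgfr3 and Fgfr4 were -0.12 (-0.72 to 0.48) and 0.06 (-0.22 to 0.33). The groups overlapped in all 4 receptor genes, and the interval reached farthest in Fgfr2 and Fgfr3.

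Among the 17 measured receptors and co-receptors, 0 passed, 3 were higher with FGF2 at an unadjusted p under 0.05 (2.72% of all probe sets were) and 0 lower. Leaving out FGF2 array 1 left 1 higher. The 3 were Flrt2, a membrane protein that binds FGF receptors, and Sdc4 and Sdc2, syndecans that carry the heparan sulphate FGFs need. Sdc4 was at 11.38, 10.94 and 11.28 with FGF2 and at 10.25, 10.40 and 10.19 with FGF7, a difference of 0.92 (limma adjusted p = 0.76). The 3 FGF2 arrays of Sdc4 were well separated from the FGF7 arrays, and the difference was 0.83 without FGF2 array 1. Flrt2 differed by 1.02 (8.89, 7.87 and 7.80 against 6.96, 7.43 and 7.11) and by 0.67 without that array, and Sdc2 differed by 0.26. Flrt3, a relative of Flrt2, had the most negative difference of the list, -1.17, from 7.22 on FGF2 array 1 against 10.28 and 10.39 on FGF2 arrays 2 and 3, and it was -0.14 without that array. The glypicans Gpc3 and Gpc4 differed by -0.48 and -0.59, and neither passed.

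Both factors were added as proteins, and the ovary's own ligand genes were measured beside them. The rat Fgf2 gene differed by 0.19 (5.15, 4.43 and 4.32 with FGF2, 4.33, 4.44 and 4.57 with FGF7) and Fgf7 by -0.20 (4.22, 4.70 and 4.32 against 4.30, 4.64 and 4.91). The groups overlapped in both genes. Of 20 measured FGF ligands 0 passed and 2 were higher at an unadjusted p under 0.05, where 2.72% of all probe sets were. The 2 were Fgf12 (0.60) and Fgf1 (0.58), the second from a level of 6.22 on FGF2 array 1 against 4.62 and 4.78 on the other FGF2 arrays. Fgf9 and Fgf22 differed by -0.17 and 0.00.

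The feedback inhibitors of the ERK pathway were mostly higher with FGF2. Of 18 measured genes, 1 passed (Dusp6), 6 were higher at an unadjusted p under 0.05, where 2.72% of all probe sets were, and 0 were lower. The 3 FGF2 arrays lay wholly above the 3 FGF7 arrays in 7 of the 18, against 6.91% of all probe sets, and wholly below in 0, against 3.76%. The difference was positive in 15 and negative in 3, and the median was 0.27, against 0.01 over all probe sets. The mean level of the 18 genes was 7.85, 7.43 and 7.41 on the FGF2 arrays and 7.12, 7.05 and 7.18 on the FGF7 arrays. The FGF2 arrays were at or above the highest control mean (7.40) and the FGF7 arrays were near the control median (7.06). Without FGF2 array 1, all 18 differences were positive, the median was 0.16, and 3 were higher at an unadjusted p under 0.05.

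Among the single members, Dusp4, a nuclear phosphatase of ERK, was at 8.41, 7.12 and 6.81 with FGF2 and at 6.06, 6.0 and 6.26 with FGF7, a difference of 1.34 (limma adjusted p = 0.59). Dusp5, another nuclear ERK phosphatase, was at 8.01, 7.26 and 6.94 against 6.81, 6.66 and 6.62, a difference of 0.71 (adjusted p = 0.384). In both genes the groups did not overlap and FGF2 array 1 was the highest, and without it the differences were 0.86 and 0.40. The Sproutys block signalling between receptor and Ras. Spry1 was the most even of them, at 8.79, 8.46 and 8.41 with FGF2 and at 7.94, 7.79 and 7.87 with FGF7, a difference of 0.69 (adjusted p = 0.16), and 0.57 without FGF2 array 1. Spry4 differed by 0.81 (adjusted p = 0.694), but its groups overlapped, with 6.45 on FGF2 array 2 below 6.63 on FGF7 array 3. Spry2 and Spry3 differed by 0.42 and 0.30, and by 0.10 and 0.04 without FGF2 array 1. Spred1, Spred2 and Spred3, which hold Ras inactive, differed by 0.25, 0.44 and 0.25, Dusp1 by 0.41, Errfi1, an inhibitor of EGF receptors, by 0.17, the adaptor Sh2b3 by 0.18 and the Ras inhibitor Rasal1 by 0.19. The 3 negative members were Dusp7 (-0.18), Dusp10 (-0.05) and Dusp2 (-0.02), and Dusp9 was at 0.01.

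All 3 PEA3 factors were higher with FGF2 at an unadjusted p under 0.05, where 2.72% of all probe sets were. In all 3 the FGF2 arrays lay wholly above the FGF7 arrays, against 6.91% of all probe sets. Etv4 alone passed. Etv5 was at 7.71, 6.63 and 6.40 with FGF2 and at 6.10, 5.96 and 6.25 with FGF7, a difference of 0.81 (limma adjusted p = 0.389). Etv1 was at 8.42, 8.24 and 8.06 against 7.64, 7.59 and 7.87, a difference of 0.54 (adjusted p = 0.389). Without FGF2 array 1, Etv5 differed by 0.41 and Etv1 by 0.46, and all 3 remained below an unadjusted p of 0.05.

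**Figure D3:**
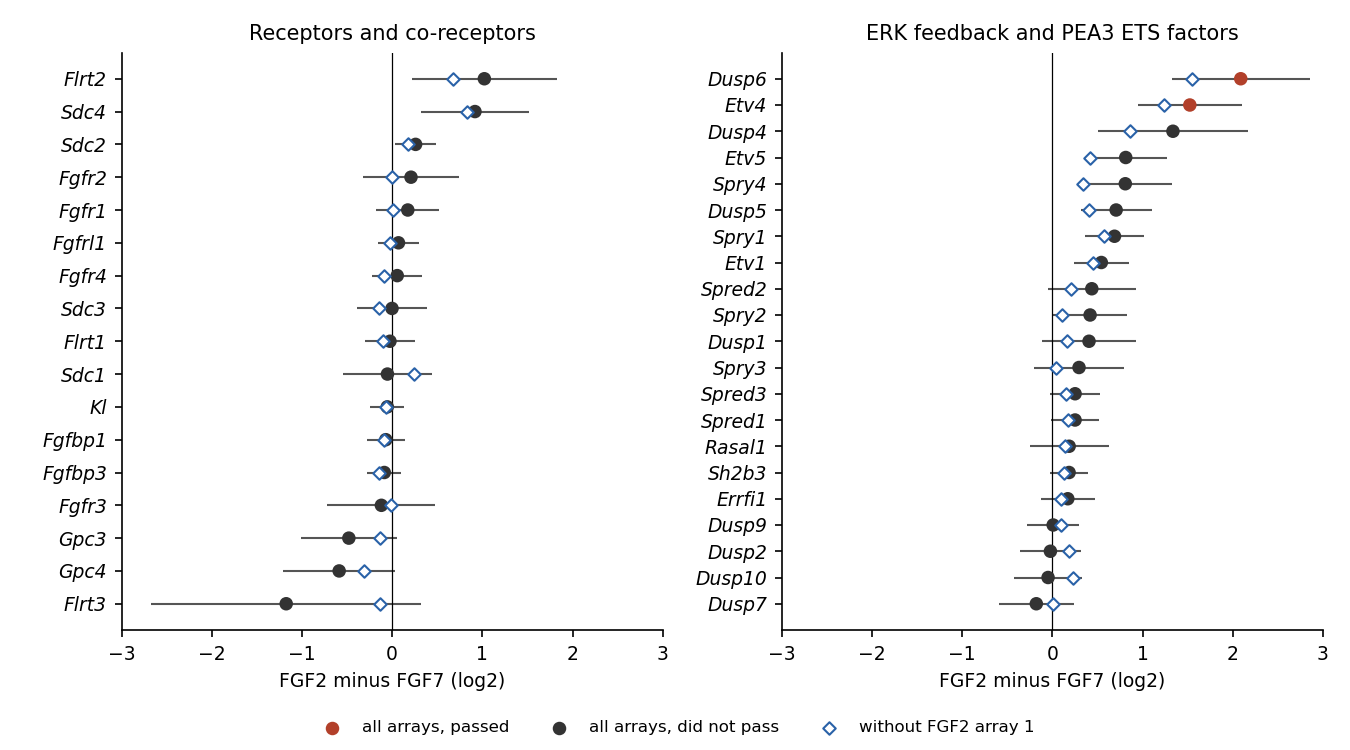
Difference FGF2 minus FGF7 (horizontal axis, log2) with its 95% interval for 17 FGF receptors and co-receptors (left) and for 18 ERK feedback genes and 3 PEA3 factors (right), with the difference without FGF2 array 1 as open diamonds. Dusp6 and Etv4 (red) passed, Fgfr1 to Fgfr4 lie near 0, and the diamonds of the feedback genes lie to the right of 0 but closer to it.

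The genes of the proteins that link receptor and ERK had mostly negative differences. Of 18 adaptors and kinases 0 passed, 0 were higher at an unadjusted p under 0.05 and 1 was lower (Sos1, -0.30), with a median of -0.12. Of all probe sets, 2.72% were higher and 1.44% lower at that limit. Ptpn11, the phosphatase Shp2, differed by -0.43 and Rasa1 by 0.00. The immediate early genes, the first transcription factors that ERK turns on, had positive differences in 24 of 24, but small ones, with a median of 0.28 and 0 past the threshold. Only Ier5 (0.44) and Klf10 (0.41) reached an unadjusted p under 0.05, where 2.72% of all probe sets were higher. This rested largely on FGF2 array 1, where Egr1 was 9.16 against 7.30 and 7.42 on the other FGF2 arrays and 7.17 to 7.70 on the FGF7 arrays. Without it, 17 were positive and 7 negative, with a median of 0.07. Ier3 and Jun differed by 0.27 and 0.49.

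Of 21 steroid and glucocorticoid genes, Hsd11b1 passed as higher and 0 as lower. The median was -0.23, with 4 higher and 2 lower at an unadjusted p under 0.05 (2.72% and 1.44% of all probe sets were). The median was -0.05 without FGF2 array 1, with 2 higher and 1 lower. Mc2r, the receptor of ACTH, was at 8.23, 6.73 and 6.85 with FGF2 and at 5.82, 6.12 and 5.74 with FGF7, a difference of 1.38 (limma adjusted p = 0.22). Its 3 FGF2 arrays were above the highest control (6.62) and its FGF7 arrays within the control range. Star, which brings cholesterol into mitochondria, differed by 0.68 and Hsd17b3 by 0.43. The 2 lower members were Pgr, the progesterone receptor (-1.08), and Esr2, the oestrogen receptor of granulosa cells (-1.0). Esr2 was at 7.07, 8.07 and 8.76 with FGF2 and at 9.18, 8.67 and 9.04 with FGF7, where the groups overlapped by one array. Hsd11b2, which inactivates glucocorticoid, differed by -0.24, Nr3c1, the glucocorticoid receptor, by 0.08, and Akr1c14 by -0.98.

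Matrix proteases and their inhibitors had 6 of 25 genes higher and 1 lower with FGF2 at an unadjusted p under 0.05 (2.72% and 1.44% of all probe sets were), 0 past the threshold, and a median of 0.28. Mmp13, collagenase 3, was at 7.74, 6.59 and 7.21 with FGF2 and at 5.06, 4.73 and 5.59 with FGF7, a difference of 2.06 (limma adjusted p = 0.478). The groups were far apart, but the 14 controls ran from 4.80 to 8.32, wider than both. Plat, the tissue plasminogen activator, was the most even, at 10.67, 10.55 and 10.42 against 10.08, 10.07 and 10.08 (difference 0.47, adjusted p = 0.47). The differences of Mmp3 (1.12) and Serpinb2 (1.06) came from FGF2 arrays 1 and 2, which stood at 6.35 and 5.53 for Mmp3 and at 7.67 and 5.63 for Serpinb2. FGF2 array 3 was at 4.33 and 4.98, beside FGF7 arrays of 4.23 to 4.31 and 5.02 to 5.05. Plaur (0.32) and Mmp23 (0.54) were the other 2 higher members, Mmp7 (-2.10) was the lower one, and Mmp2 and Mmp14 differed by 0.03 and 0.28. Without FGF2 array 1 the median was 0.04, with 2 higher and 0 lower at an unadjusted p under 0.05.

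Of the 18 prostaglandin genes 0 passed. Ptgs2, the inducible cyclooxygenase, was at 8.43, 6.64 and 5.88 with FGF2 and at 5.63, 5.84 and 5.91 with FGF7 (difference 1.19, limma adjusted p = 0.478), so that FGF2 array 3 lay among the FGF7 arrays. Pla2g4a, which frees arachidonic acid, differed by 0.80 with 10.54 on FGF2 array 1 and 9.09 and 8.74 on the other 2, and Ptges3 by -0.03.

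No probe set was lower with FGF2, that is higher with FGF7, past the adjusted threshold. The study's own criteria take an unadjusted p up to 0.05, a fold of 1.2 upwards or 0.83 downwards between means of unlogged levels, and 10 units or more between those means. With the limma p over all 38 arrays put in place of the study's own test, 761 probe sets (2.78%) met them, 469 (1.72%) higher with FGF2 and 292 (1.07%) lower. With the test the methods name, on the 6 arrays, 365 met them on log2 values (246 higher, 119 lower) and 331 on linear values (193 higher, 138 lower). The 10 genes with the most negative difference among those that met the criteria by the limma p without overlap are given next, and none of them passed. Pi15, a peptidase inhibitor, led with -1.87 (limma adjusted p = 0.428). It was at 5.13, 5.67 and 6.40 with FGF2 and at 7.41, 7.28 and 8.12 with FGF7, and the control median of 7.43 lay among the FGF7 arrays. Pgr was at 6.36, 7.10 and 7.43 with FGF2 and at 8.03, 7.85 and 8.27 with FGF7 (adjusted p = 0.834), with a control median of 7.22 that lay among the FGF2 arrays instead. Myocd, a coactivator of smooth muscle genes, was at 5.86, 5.98 and 6.54 against 7.51, 6.90 and 7.11, a difference of -1.05 (adjusted p = 0.767). Alcam, a cell adhesion molecule, came closest to the threshold with -0.92 (8.64, 9.09 and 9.61 against 9.96, 9.77 and 10.37, adjusted p = 0.101). It passed as lower with the replicate number as a block (adjusted p = 0.0421), with array weights (-0.76, adjusted p = 0.0452) and without FGF2 array 3 (-1.17, adjusted p = 0.0113), and was at -0.68 with an adjusted p of 1 without FGF2 array 1.

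Lum, a small proteoglycan of the stroma, was at 7.47, 8.80 and 8.62 with FGF2 and at 9.36, 9.34 and 9.27 with FGF7. Its difference of -1.03 was -0.61 without FGF2 array 1. Agtr2, an angiotensin receptor, differed by -0.94, C7, a complement protein, by -0.90, and Akr1c19, an aldo-keto reductase, by -0.89, the last by -0.23 without that array. Lrat, which stores retinol as ester, was at 5.36, 4.54 and 5.80 with FGF7 and at 4.10, 4.52 and 4.37 with FGF2. Prss8, an epithelial serine protease, was at 5.59, 4.66 and 5.76 with FGF7 and at 4.24, 4.64 and 4.46 with FGF2. In both genes FGF7 arrays 1 and 3 were above all 14 controls, and FGF7 array 2 was hardly above the highest FGF2 array.

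That pattern, high on FGF7 arrays 1 and 3 and not on 2, ran through the markers of duct and tubule epithelium. Of 20 measured markers, 18 were lower with FGF2, 8 of them at an unadjusted p under 0.05, where 1.44% of all probe sets were, 0 passed, and the median was -0.53. Their mean level was 6.48, 5.56 and 7.00 on the FGF7 arrays, 5.59, 5.80 and 5.92 on the FGF2 arrays and 5.36 to 6.38 on the controls (median 5.67). FGF7 arrays 1 and 3 were thus above every control, and FGF7 array 2 was below all 3 FGF2 arrays. Mmp7, matrilysin, was at 7.36, 4.94 and 8.70 with FGF7 and at 4.36, 4.79 and 5.55 with FGF2. Elf3, an epithelial ETS factor, was at 5.37, 4.04 and 6.14 with FGF7 and at 4.00, 4.12 and 4.15 with FGF2. Cldn7, a tight junction protein, was at 5.10, 3.84 and 5.53 with FGF7 and at 3.87, 4.13 and 4.15 with FGF2. In these 3 genes the groups overlapped through FGF7 array 2 alone. The markers Gabrp and Epcam differed by -1.70 and -0.79, while Pax2 and Pax8, which define the tubules, differed by -0.01 and -0.19.

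These values depended on single FGF7 arrays. Without FGF7 array 2, 11 duct markers were lower with FGF2 at an unadjusted p under 0.05, Cldn7 and Elf3 passed, and the median was -1.07. Without FGF7 array 3, 0 were, and the median was -0.22. FGF7 array 3 also held fat markers, with Adipoq at 6.22 and Fabp4 at 6.99, against 4.15 to 4.33 and 4.19 to 4.47 on the other 5 arrays and highest controls of 4.62 and 5.90. The 14 muscle and fat markers as a whole averaged 5.07 on that array, 4.73 to 4.82 on the other 5 and 4.80 to 4.98 on the controls. All FGF2 arrays and FGF7 array 1 were thus below every control. The part that tissue beside the ovary had in these values was not tested.

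**Figure D4:**
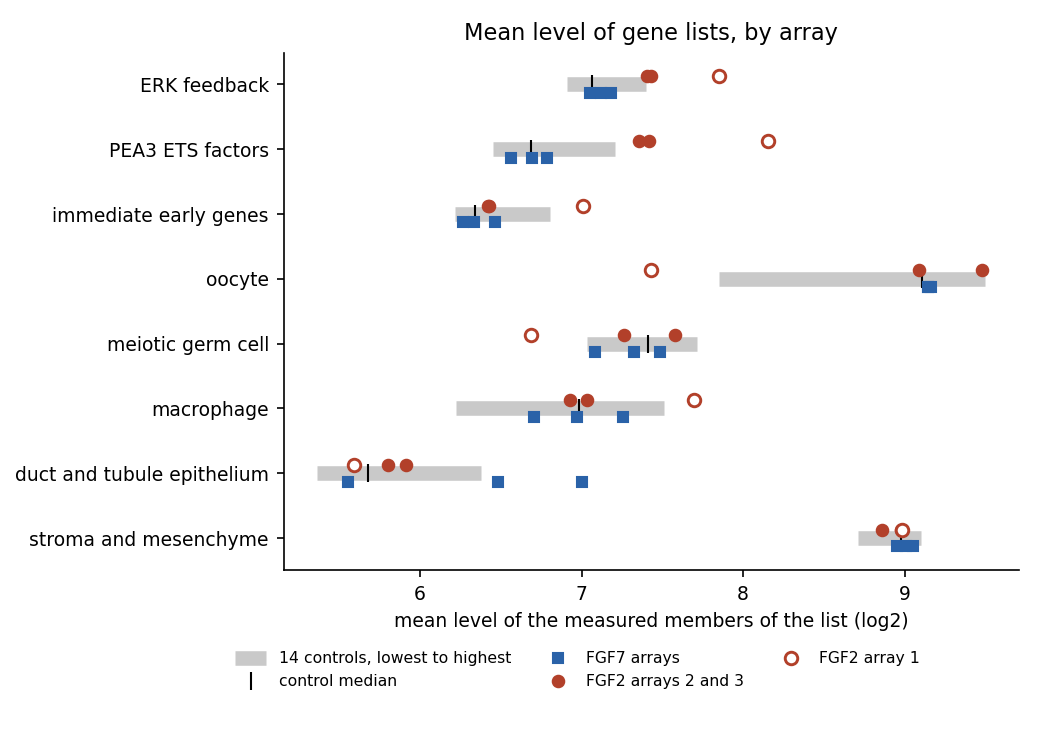
Mean level (horizontal axis, log2) of the measured members of 8 gene lists on each FGF2 array (circles, array 1 open) and FGF7 array (squares), with the range (grey bar) and median (tick) of the 14 controls. The PEA3 circles lie to the right of the squares and of the controls, the open circle of the oocyte list lies at 7.43, left of all others, and the duct squares lie at 5.56, 6.48 and 7.00.

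Markers of the ovary's own cells did not pass in either direction. Of 17 oocyte markers, all 17 were lower with FGF2, 0 at an unadjusted p under 0.05, with a median of -0.47. This came from FGF2 array 1: Gdf9, the oocyte growth factor, was at 7.55 there, at 10.62 and 10.42 on the other FGF2 arrays and at 10.30, 10.16 and 10.54 with FGF7. The zona pellucida gene Zp3 was at 10.09, 11.80 and 11.40 with FGF2 and at 11.61, 11.60 and 11.63 with FGF7. Without that array 14 of the 17 were positive and 3 negative, with a median of 0.16. In RNA from whole ovaries, fewer oocytes and less RNA per oocyte cannot be told apart. The 20 pregranulosa and gonadal markers had a median of 0.09, with 13 positive and 7 negative, and of -0.03 without FGF2 array 1, with 9 and 11. At an unadjusted p under 0.05, 0 were higher and 1 was lower (2.72% and 1.44% of all probe sets were), the inhibin subunit Inhbb (-0.37). Their mean level on FGF2 array 1 was 7.72, inside the control range of 7.69 to 8.26. Single granulosa genes, picked after their values were seen, were lower on that array than in every control. Amh was at 4.47, 7.30 and 6.86 with FGF2 and at 7.61, 7.37 and 7.43 with FGF7 (difference -1.26), and Fshr at 5.40, 8.01 and 7.71 against 8.11, 7.91 and 7.92 (difference -0.94).

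Among the other cell types, 16 macrophage markers had a median of 0.25 with 14 positive, and their mean level was 7.69, 7.03 and 6.93 with FGF2 and 6.70, 7.26 and 6.97 with FGF7. Here again array 1 of FGF2 was above every control (6.22 to 7.51), and without it the median was 0.02. The 18 stroma markers had a median of 0.01, with Lum lower and Twist1, a mesenchymal transcription factor, higher (0.48) at an unadjusted p under 0.05. Of all probe sets, 2.72% were higher and 1.44% lower at that limit. In the surface epithelium, Upk1b, a uroplakin, was at 9.32, 8.04 and 8.62 with FGF2 and at 7.21, 7.25 and 7.47 with FGF7, a difference of 1.35 (limma adjusted p = 0.366). Of the 14 surface markers, 8 were positive and 6 negative, and at an unadjusted p under 0.05 Upk1b was higher and Lgr5, a receptor with leucine-rich repeats, lower (-0.71). Krt19 and Wt1, the surface markers of highest mean level, which are also on the pregranulosa and gonadal list, differed by 0.28 and 0.11. Endothelial markers had a median of -0.13, smooth muscle and pericyte markers of 0.14, and 0 of either passed. With FGF2 array 1 left out these medians were 0.10 and 0.09.

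None of the cell growth genes passed. The median of 30 cell cycle genes was -0.02. Ccnd1, the cyclin that growth factors turn on, was at 9.17, 7.76 and 7.13 with FGF2 and at 7.32, 7.14 and 7.20 with FGF7, so that the groups overlapped and its difference of 0.80 came mostly from array 1. The medians of DNA replication, ribosomal protein and oxidative phosphorylation genes were -0.04, 0.06 and 0.10. Leaving out FGF2 array 1 turned the medians of cell cycle and DNA replication genes to 0.03 and 0.07. In the cell death list, Pmaip1, the proapoptotic Noxa, was at 6.39, 5.69 and 5.62 with FGF2 and at 4.92, 4.86 and 5.28 with FGF7 (difference 0.88, limma adjusted p = 0.347). Igf1 and Igfbp5, which act in follicle growth, differed by -0.38 and -0.45, and Inhba, which makes activin, by -0.90, with 0 of these lists past the threshold.

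**Figure D5:**
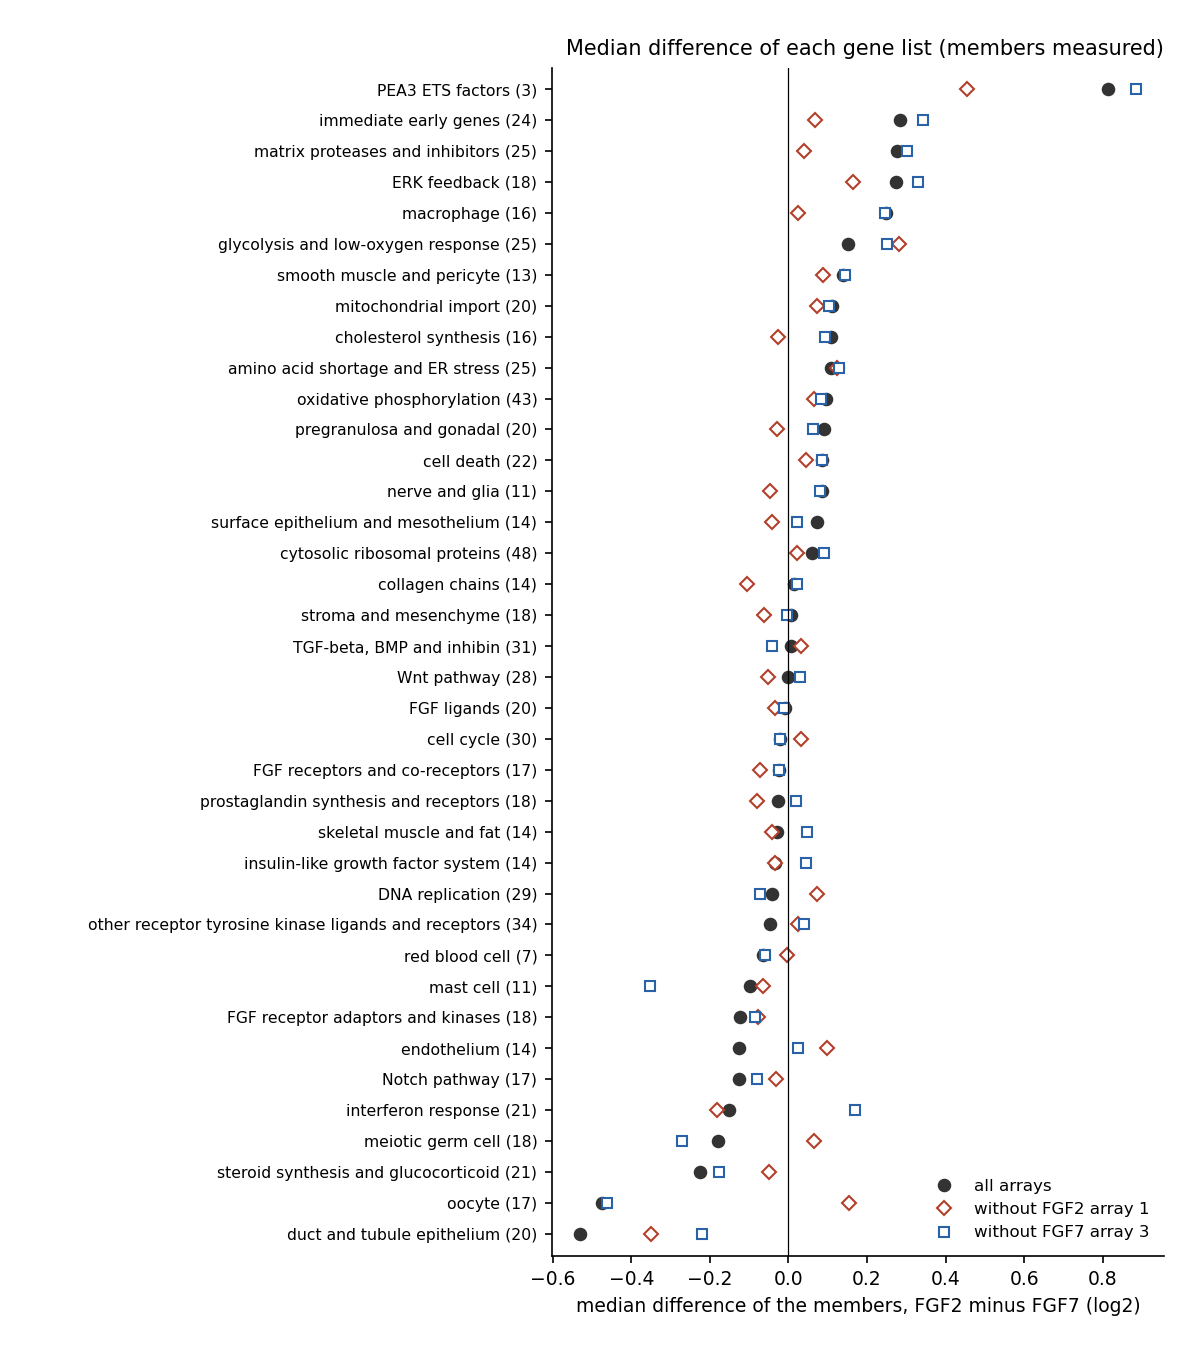
Median of the difference FGF2 minus FGF7 (horizontal axis, log2) over the measured members of each of the 38 gene lists, for all arrays (filled circles), without FGF2 array 1 (diamonds) and without FGF7 array 3 (squares). PEA3 factors lie at 0.81 and stay above 0 in all 3, while the oocyte list turns from -0.47 to 0.16 without FGF2 array 1.

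Over all 38 lists, 3 of 750 measured genes passed (Dusp6, Etv4 and Hsd11b1), beside 10 of 14324 genes with a symbol. The largest list medians were those of PEA3 factors (0.81) on the FGF2 side and of duct epithelium (-0.53) on the FGF7 side. Taken alone, 3 arrays against 3 give an exact permutation p of 0.1 at the least over the 20 splits, which each of the 13 probe sets reached. With the spread taken from these 6 arrays only, limma passed 0 probe sets, with 1182 at an unadjusted p under 0.05.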

How the data were processed

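Total RNA of cultured rat ovaries was measured on Affymetrix rat gene arrays. Per the paper's methods, the scans went through RMA with a GC content adjustment in Partek Genomic Suite, so what the authors deposited are log2 levels. They were used as deposited, within the 38 arrays preprocessed together. The CTGF arrays and their controls were not used here. RMA brings arrays to nearly one distribution (medians of the 6 arrays 5.93 to 6.01), so that a change in total RNA cannot be seen, and the number of arrays limits the precision. In the annotation 15097 probe sets have 1 symbol, 323 have several and 11922 have none. By gene number 15067 symbols were kept and 0 updated, and 30 were not matched and kept as annotated.

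Group means of the 38 arrays were fitted in R 4.3.3 with limma 3.58.1 (lmFit, then eBayes), with 29 residual degrees of freedom. The fit takes 1 spread per probe set for all groups. Its p-values and intervals can therefore be too firm where the FGF2 arrays spread more than the others. In Rem1, for example, the SD was 1.10 with FGF2 and 0.22 with FGF7. The contrast was FGF2 minus FGF7, and the threshold was a Benjamini-Hochberg adjusted p of 0.05 over the 27342 probe sets. Results read "FGF2 array 1" for replicate 1 of the labels. Where several probe sets share a symbol, the brightest over the 38 arrays stood for the gene. The genes named were those that passed, up to 15 in each direction, filled to 10 by the study's criteria (with the limma p), members of lists that passed, the FGF receptor, ERK feedback and PEA3 lists, Fgf2, Fgf7, and 2 members of the highest mean level of each other list described. Other genes named, such as list members at an unadjusted p under 0.05, were chosen after their values were seen. The comparison, its members and the 38 gene lists were chosen with earlier results of these data known, and no list was tested as a set. Promoters came from RefSeq (GRCr8).

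On simulated data of the same layout the fit recovered 26% of true changes of 0.5 log2, 82% of those of 1, 94% of those of 1.5 and 100% of those of 2, with 6 false calls among 157. The simulated noise was independent, with 1 spread per probe set for every group, and no array stood apart. The data differ in this through FGF2 array 1, so that these rates need not hold for them. The alternatives were the 6 arrays alone, the replicate number as a block, the methods' test on log2 and on linear values, array weights, a variance trend, other normalization, filters, and leaving out each array. Tables and figures were made with Python 3.11.15, numpy 2.4.6, pandas 2.3.3 and matplotlib 3.10.9.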

Additional observations from a re-analysis of the deposited data

How the results depend on the processing

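Leaving out 1 array at a time, 2 to 33 probe sets passed (2 without FGF2 array 1, 3 without FGF7 array 1 or 3), 306 to 1661 met the study's criteria, 0 to 6 genes of the lists passed, and 1 to 9 of the 10 named genes. Tulp2 and probe set 10777232 passed in all 6. Without FGF7 array 2, 4 of 7 calls were lower with FGF2, including Cldn7 and Elf3. No named gene that passed changed direction in any of the 17 alternatives. The groups did not overlap in any of the 10, so that leaving out or weighting arrays could not have changed it. Several other alternatives altered only the spread or the probe sets tested.

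With the 6 arrays alone, 0 probe sets passed, as did 0 genes of the lists and 0 named genes, and the methods' test gave the same 0 after adjustment on log2 values (1257 at an unadjusted p under 0.05, 365 by the study's criteria) and on linear values (1220 and 331). Repeated quantile normalization passed 5 probe sets, 1 gene of the lists and 2 named genes. Apart from equal numbers, nothing in the labels ties an FGF2 array to an FGF7 array, and whether some share a litter or a day is not known. Deviations of same-numbered arrays correlated at 0.04, 0.12 and 0.06. With the replicate block, all 38 arrays passed 17 probe sets (9 shared with the fit reported), 5 genes of the lists and 6 named genes, and 1210 met the criteria, while the 6 arrays with the block passed 0, 0 and 0. In the fit of 38 arrays the block joined equal numbers over all groups, controls included. Controls with a number that no other array had were alone in their block and added nothing to the spread. Of the 17 calls of the block on all 38 arrays, 1 was lower (Alcam), and Ctsl, Il1r1, Pnoc, Mmp13 and Upk1b were among the 8 that did not pass before. Array weights gave 18 higher and 1 lower (Alcam), and without FGF2 array 3, Dusp5, Mmp3 and Ptgs2 passed as well. Dusp6 ranged from 1.54 to 2.41 over the alternatives, with adjusted p from 0.00575 to 0.95. In the simulation at this size, differences of 0.5 were missed more often than not.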

Other observations

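Some gene groups varied between arrays of the same factor, and the cause was not tested. Mast cell markers averaged 6.40 on FGF2 array 2, 6.20 and 6.03 on FGF7 arrays 1 and 2, and 5.19 to 5.32 on the other 3 arrays, and the mast cell protease Cpa3 was at 7.56, 7.65 and 7.17 on the first group and at 5.03 to 6.0 on the second. Interferon response genes averaged 8.12 on FGF7 array 3, above the highest control (8.09), against 6.91 to 7.57 on the other 5. There Mx1, an antiviral GTPase, was at 8.92 and on the other 5 arrays between 5.02 and 6.12. Glycolysis and low-oxygen genes averaged 9.31 on FGF2 array 3 and 9.00 on FGF7 array 3, both above the highest control (8.96), and 8.32 to 8.74 on the other 4.

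Just short of the threshold, and chosen after their values were seen, were Ctsl and Il1r1. Both passed with the replicate block, with array weights, among the probe sets brighter than the median, among those with 1 symbol and without FGF2 array 3, and Ctsl also with the variance trend and Il1r1 also without FGF2 array 2. Ctsl, the lysosomal protease cathepsin L, was at 11.60, 11.38 and 11.08 with FGF2 and at 10.68, 10.53 and 10.65 with FGF7 (difference 0.74, limma adjusted p = 0.0584). All 3 FGF7 arrays were below the lowest of the 14 controls (10.83), and the FGF2 arrays were within the control range. Il1r1, the interleukin 1 receptor, was at 11.08, 9.61 and 9.68 with FGF2 and at 8.47, 8.75 and 8.70 with FGF7 (difference 1.49, limma adjusted p = 0.0655). Pnoc, the precursor of nociceptin, was at 9.27, 8.30 and 9.42 with FGF2 and at 6.83, 6.80 and 7.25 with FGF7 (difference 2.04, limma adjusted p = 0.101), and its FGF2 arrays were all above the highest control (7.64). It passed with the replicate block and without FGF2 array 2. Twist1 resembled Ctsl in that its FGF7 arrays (6.43, 6.43 and 6.28) were below the lowest control (6.47).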
